A study of Mus musculus with 46 samples.

Results

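The 5 mammary tumors of MMTV-Hras mice and the 5 mammary glands of pregnant normal mice of the same strain, FVB, were taken from the 46 samples of the series by their labels, 1 array per sample. MMTV-Hras mice carry an activated Ras oncogene under the long terminal repeat of the mouse mammary tumor virus, a promoter that is active in mammary epithelium and also in other tissues such as salivary gland and lymphoid cells, and the tumors were primary tumors of female mice. The normal glands carry no transgene and came from late pregnancy, when milk-producing epithelium has expanded. The whole series held 41 tumors of 8 models, and 19 tumors of the other 4 FVB models with an MMTV-driven oncogene (MMTV-C-Myc, MMTV-H2N, which is Her2/neu, MMTV-PymT and MMTV-Wnt) were set beside the MMTV-Hras tumors at the end. The titles of the 5 normal glands share a common stem, and the labels do not say whether the glands came from separate animals. The p-values therefore measure the spread between these samples, which may be technical in part.

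MicroRNAs (miRNAs) are short RNAs that guide silencing complexes to messenger RNAs and lower their translation and stability. The seed near the 5′ end sets most of the target choice, so miRNAs with the same seed form families. In mammary tissue the miR-200 family holds cells in the epithelial state by repressing the transcription factors Zeb1 and Zeb2, miR-205 marks basal and myoepithelial cells, and the let-7 family represses Ras messenger RNAs in worms and in human cells.

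The sequences below are shown because the results turn on these families. They are RefSeq mature miRNAs with positions in build GRCm38.p6. The 22 array names looked up were found, but these are not all the miRNAs named below. The sequence reference had no entry for miR-182, miR-183, miR-96, miR-328, miR-150 and others, so no sequence is printed for them. The array names carry no arm, and the printed arm is the one the older name stands for. Capitals mark the seed, bases 2 to 8. The first 5 are the miR-200 family, which has the seed AAUACUG in miR-200c (chr6:124718324-124718346, minus strand), miR-200b and miR-429, and the seed AACACUG in miR-141 and miR-200a.
miR-200c: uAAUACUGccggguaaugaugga
miR-200b: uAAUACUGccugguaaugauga
miR-429: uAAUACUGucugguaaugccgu
miR-141: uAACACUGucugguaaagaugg
miR-200a: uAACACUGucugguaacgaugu

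The next sequences belong to miRNAs that were lower in the tumors. miR-10a and miR-10b (chr2:74726074-74726096, plus strand) share a seed and differ at 1 base, as do miR-196a and miR-196b, and as do miR-103 and miR-107, so that the probes may not separate the members of these pairs. miR-205 lies at chr1:193507503-193507524 on the minus strand. The array entry miR-424, whose family is given as mir-322 in the deposited table, is RefSeq miR-322 of mouse chromosome X (chrX:53054306-53054327, minus strand).
miR-10a: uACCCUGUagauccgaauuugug
miR-10b: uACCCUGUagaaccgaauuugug
miR-196a: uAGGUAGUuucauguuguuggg
miR-196b: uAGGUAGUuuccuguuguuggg
miR-103: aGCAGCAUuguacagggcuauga
miR-107: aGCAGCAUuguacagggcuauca
miR-205: uCCUUCAUuccaccggagucug
miR-424: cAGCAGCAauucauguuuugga
miR-503: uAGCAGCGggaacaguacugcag

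The last pair holds the miRNAs with the largest measured folds upward in the tumors, miR-346 (chr14:34894624-34894646, plus strand), which lies in a gene for a glutamate receptor subunit, and miR-211 (chr7:64205831-64205852, plus strand), which lies in the melanocyte gene Trpm1.
miR-346: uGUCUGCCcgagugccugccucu
miR-211: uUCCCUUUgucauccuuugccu

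Each of 334 mouse miRNAs had 4 spots on an array, and a level is given here in array medians, the signal of the miRNA divided by the median over all spots of its array. As a measure of background, the 5th percentile of the spots of an array is named the floor, and signals over 3 floors are called above background. The floor lay between 25.6 and 40.2 on the tumor arrays and between 21.3 and 34.6 on the normal arrays, and 200 to 252 miRNAs were above background on tumor arrays, against 199 to 236 on normal arrays. The array median lay between 236 and 794 on tumor arrays and between 172 and 494 on normal arrays. Tumor arrays correlated with each other over miRNAs at r between 0.85 and 0.98, and normal arrays between 0.94 and 0.99. The tumor arrays thus differed more among themselves. As the normal samples may share a source, this cannot say whether tumors vary more than glands of separate animals. Tumor 5 was the least like the others, with r between 0.85 and 0.91. The signals of tumors 1 and 2 were deposited with 3 digits and those of the other 8 arrays with more.

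The comparison asked which miRNAs separate tumors started by Ras from the normal gland. All the normal glands were from pregnant mice and the labels give no pregnancy for the tumor mice. A difference by pregnancy therefore cannot be told apart from one by tumor. Of 334 miRNAs, 23 were higher in MMTV-Hras tumors (6.89%) and 43 were lower (12.9%) at a limma adjusted p below 0.05, around a median log2 fold of -0.06. The miR-183 cluster, miR-200c and a set of dim miRNAs led by miR-346 and miR-211 were higher. Lower were miR-205 of basal cells, miRNAs of the Hox clusters, those of smooth muscle, red cells and skeletal muscle, and members of a cluster on chromosome X. Both groups were above background on all 5 arrays for 12 of the higher and 21 of the lower miRNAs, and the scaled values of the groups did not overlap for 15 of the higher and 30 of the lower. Over all miRNAs the groups did not overlap for 47 (14.1%).

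The split of calls followed the scaling. Higher miRNAs were 34.8% of calls with the array median, against 53.7% with the 75th percentile, 60.5% with the mean of the brightest miRNAs, 50.6% with quantiles, 49.4% with the floor subtracted and 75.6% with no scaling, where the median fold of all miRNAs was 0.46. Under all 6 of these, 20 miRNAs were called higher and 19 lower.

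**Figure D1:**
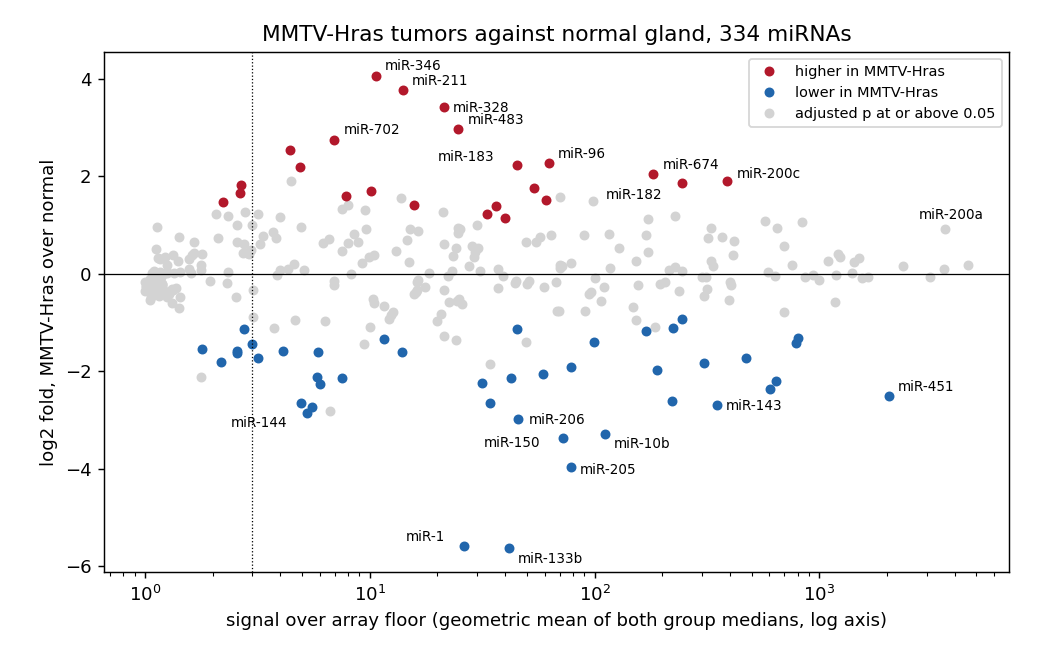
Log2 fold of MMTV-Hras over normal for 334 miRNAs (vertical axis) against signal over the array floor (log axis). Red points are the 23 higher and blue points the 43 lower miRNAs, and the dotted line stands at 3 times the floor. miR-346, miR-211, miR-328 and miR-483 top the plot, and miR-133b and miR-1 lie lowest.

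The 3 miRNAs of the miR-183 cluster, which are neighbours on chromosome 6 and are known from sensory organs and raised in many carcinomas, were all higher in the tumors. miR-183 stood at 22.7, 10.6, 7.13, 3.28 and 4.62 array medians in the MMTV-Hras tumors, against 1.90, 1.02, 1.27, 2.37 and 1.93 in the normal glands. Every tumor was above every gland. The log2 fold was 2.23 ± 0.49 (standard error, adjusted p = 0.00565). miR-96 had a log2 fold of 2.26 ± 0.53 (adjusted p = 0.0084) and levels of 33.2, 15.9, 12.6, 4.32 and 4.32 array medians in the tumors, against 3.48, 1.55, 1.69, 2.72 and 1.97 in the glands. miR-182 stood at 84.5, 41.1, 37.3, 18.5 and 19.0 array medians in the tumors, against 15.0, 10.1, 9.40, 8.51 and 5.93 in the glands (log2 fold 1.86 ± 0.44, adjusted p = 0.00858). Within the tumors the 3 miRNAs were highest in tumor 1, whose array had the lowest median of the tumors. In unscaled signal, miR-182 in the tumors lay between 10070 and 19940, against 2586 to 3944 in the glands, and tumor 1 was again highest.

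The 5 members of the miR-200 family had positive folds, between 0.91 and 1.90 with a median of 1.18, and miR-200c alone passed the test with the array median. miR-200c stood at 165, 87.5, 73.4, 44.7 and 32.7 array medians in the tumors, against 19.0, 13.8, 8.46, 34.5 and 28.3 in the glands (log2 fold 1.90 ± 0.49, adjusted p = 0.0132). The groups overlapped, since glands 4 and 5 were near tumors 4 and 5. miR-141, its neighbour on chromosome 6, had a log2 fold of 1.58 ± 0.56 (adjusted p = 0.0611), miR-429 of 1.18 ± 0.44 (adjusted p = 0.0753), miR-200b of 1.08 ± 0.42 (adjusted p = 0.0871) and miR-200a of 0.91 ± 0.39 (adjusted p = 0.122). All 5 members were called higher under each of the other 5 scalings, with median folds between 1.30 and 1.70. Without tumors 1 and 2, no member passed and the median fold was 0.88. All 5 were above background on all 10 arrays, so epithelial markers were present in both tissues, and miR-200a was at 4673 to 6967 times the floor in the tumors and 1884 to 3229 times in the glands.

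**Figure D2:**
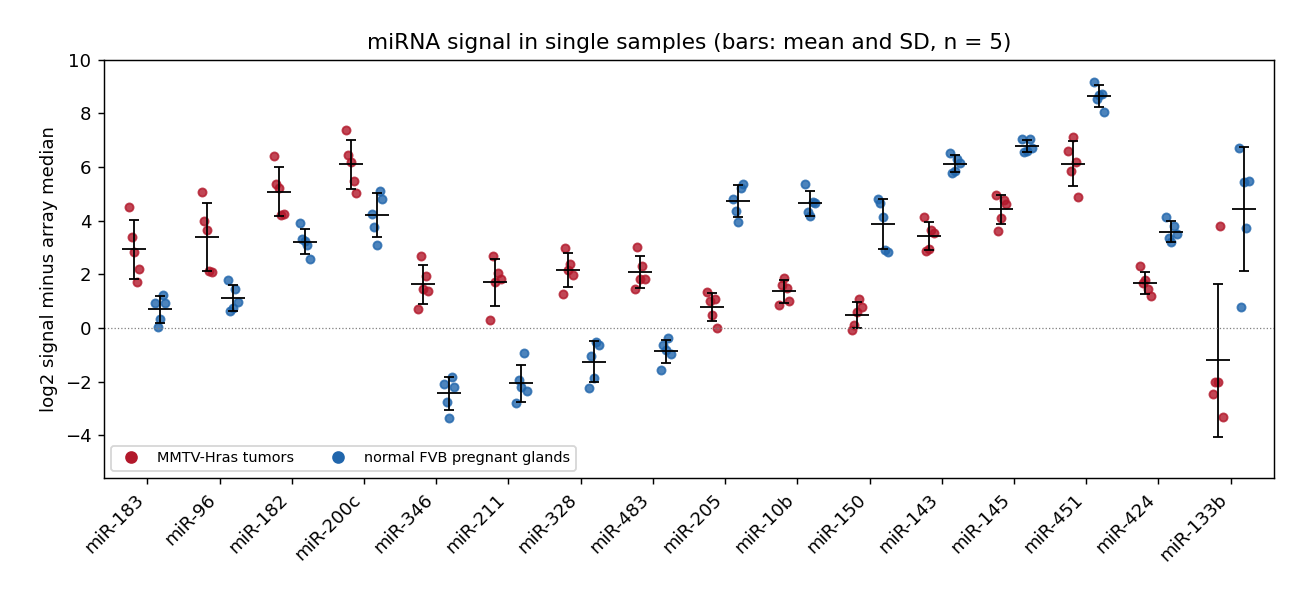
Log2 signal minus the array median of 16 miRNAs in single samples, with MMTV-Hras tumors in red on the left and normal FVB pregnant glands in blue on the right of each name, and mean and SD of 5 samples as bars. Groups lie apart for miR-183, miR-346 and miR-205, and overlap for miR-200c and miR-133b, where tumor 4 is high and gland 2 is low.

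The largest folds in the tumors belonged to miRNAs that were dim in normal gland. miR-346 stood at 1.62, 6.37, 2.77, 3.87 and 2.58 array medians in the tumors, against 0.24, 0.15, 0.10, 0.29 and 0.22 in the glands (log2 fold 4.06 ± 0.42, adjusted p = 1.89e-05). It was above background in 5 of 5 tumors and 1 of 5 glands. miR-211 stood at 1.22, 6.40, 3.33, 4.16 and 3.53 array medians in the tumors, against 0.14, 0.26, 0.22, 0.52 and 0.20 in the glands (log2 fold 3.76 ± 0.47, adjusted p = 7.65e-05). For both the groups lay apart, with tumor 1 the lowest tumor.

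miR-328 had a log2 fold of 3.42 ± 0.43 (adjusted p = 7.65e-05) and was 22.3 to 106 times the floor in the tumors, against 1.66 to 11.2 times in the glands. miR-483, which lies in an intron of the growth factor gene Igf2, had a fold of 2.96 ± 0.37 (adjusted p = 7.65e-05) and lay between 2.74 and 8.05 array medians, against 0.34 to 0.77. miR-702 followed with a fold of 2.74 ± 0.37 (adjusted p = 0.000116). These 5 miRNAs were above background in every tumor, and in the glands on 4 arrays for miR-211, miR-328 and miR-483 and on 1 for miR-346 and miR-702. miR-698 had a fold of 2.19 ± 0.41 and was above background in 5 tumors and 1 gland. miR-469, miR-673 and miR-764-5p were above background in none of the glands, so that their folds are bounds. They were at least 3.26-fold, 1.74-fold and 1.46-fold higher in the tumors, in that order, and were above background in 4, 4 and 5 of the 5 tumors.

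Of the brighter miRNAs, miR-674 stood at 35.1, 30.8, 21.8, 67.9 and 24.4 array medians in the tumors, against 9.77, 8.43, 6.78, 6.91 and 8.66 in the glands, with no overlap (log2 fold 2.04 ± 0.36, adjusted p = 0.00107). miR-148b had a log2 fold of 1.52 ± 0.46 (adjusted p = 0.0322), miR-423 of 1.40 ± 0.40 (adjusted p = 0.0239) and miR-181c of 1.39 ± 0.38 (adjusted p = 0.0178). All 3 lost the call in at least 1 fit with a sample left out. The folds were then between 1.37 and 1.54 for miR-148b, between 1.19 and 1.38 for miR-423 and between 1.20 and 1.23 for miR-181c. miR-148b lost it without tumor 3 or 4 or gland 2, 3 or 5, miR-423 without tumor 2 or 3 or gland 2 or 3, and miR-181c without gland 2 or 3.

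miR-205, which supports basal cells and mammary progenitors, had the largest fold among the lower miRNAs that were bright in every sample. It stood at 2.56, 2.02, 1.40, 2.10 and 1.01 array medians in the MMTV-Hras tumors, against 28.2, 20.7, 15.3, 37.0 and 41.8 in the normal glands. The highest tumor was far below the lowest gland. The log2 fold was -3.96 ± 0.39 (adjusted p = 1.89e-05), a 15.5-fold difference, and miR-205 was still 19.1 to 34.8 times the floor in the tumors. The other miRNAs listed for basal and squamous epithelium did not pass, with folds of -0.42 for miR-203 and 0.45 for miR-31, so 1 of 3 was lower. The sum of the 3 was 5.51 to 20.2 array medians in the tumors, against 24.6 to 49.9 in the glands.

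Of 5 miRNAs of the Hox clusters, whose genes sit among the homeotic transcription factor genes, 4 were lower and 1 higher. miR-10b stood at 1.81, 3.06, 3.67, 2.82 and 2.01 array medians in the tumors, against 42.0, 20.2, 18.1, 26.2 and 25.5 in the glands, with no overlap (log2 fold -3.29 ± 0.35, adjusted p = 1.89e-05). miR-10a had a fold of -1.97 ± 0.51 (adjusted p = 0.0132). The other 4 tumors lay between 3.11 and 6.92 array medians and below every gland, but tumor 4 was above glands 4 and 5, which stood at 15.3 and 14.2.

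miR-196a had a log2 fold of -2.66 ± 0.57 (adjusted p = 0.00512) and miR-196b of -2.14 ± 0.65 (adjusted p = 0.0331). miR-196b lost the call under the other 5 scalings, without gland 2 or 3 and without tumors 1 and 2. Tumor 1 was the lowest sample for both, at 0.21 and 0.19 array medians, where neither was above background. miR-615, in the Hox cluster of Hoxc5, was higher, at 0.75 to 2.87 array medians in the tumors against 0.33 to 0.66 in the glands (log2 fold 1.70 ± 0.40, adjusted p = 0.00794). With no scaling only 1 of the 4 lower members stayed called, and under the other 4 scalings 3 did. Without tumors 1 and 2 the lower members numbered 2, and miR-10a and miR-196b lost the call.

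miR-424 and miR-503, which in mouse take part in leaving the cell cycle and in the remodelling of the mammary epithelium after weaning, were both lower, as were miR-450, miR-351 and miR-542-5p of the same cluster of 6.4 kb on chromosome X. This cluster was picked out after its values were seen. miR-424 stood at 5.03, 3.20, 3.44, 2.74 and 2.32 array medians in the tumors, against 17.6, 10.2, 9.15, 13.9 and 11.4 in the glands (log2 fold -1.91 ± 0.34, adjusted p = 0.00107). The groups lay apart. miR-503 had a fold of -1.60 ± 0.38 (adjusted p = 0.00858), miR-450 of -1.61 ± 0.53 (adjusted p = 0.0462) and miR-351 of -1.35 ± 0.44 (adjusted p = 0.0449). miR-542-5p was above background in none of the tumors and in all 5 glands, and it was at least 2.17-fold lower in the tumors. miR-450 and miR-351 lost the call in 8 fits each of the 10 that leave out a sample, with folds between -1.79 and -1.18 for miR-450 and between -1.43 and -1.10 for miR-351. The remaining entry of the cluster, miR-450b, was not above background on any of the 10 arrays.

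miR-103 and miR-107, which share a seed, lie in introns of pantothenate kinase genes and in mouse liver and fat act on insulin sensitivity, were both lower. miR-107 stood at 39.9, 37.9, 32.5, 33.0 and 35.2 array medians in the tumors, against 139, 99.5, 99.9, 81.5 and 72.3 in the glands (log2 fold -1.43 ± 0.31, adjusted p = 0.00518). The tumors were close together, with an SD of 0.13 on the log2 scale. miR-103 had a fold of -1.31 ± 0.31 (adjusted p = 0.00858). Neither passed with no scaling.

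Markers of the other cells of the gland were set against each other in the same way. A tumor and a gland differ in cell makeup, and in such bulk RNA fewer cells of a type and less of the miRNA per cell cannot be told apart. The part of cell makeup in the results above was not tested.

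The smooth muscle pair miR-143 and miR-145, which drives the contractile state of smooth muscle, was lower in every tumor than in any gland. miR-143 stood at 17.4, 7.31, 7.78, 12.6 and 11.8 array medians in the tumors, against 93.4, 54.7, 57.4, 79.3 and 71.5 in the glands (log2 fold -2.69 ± 0.35, adjusted p = 7.95e-05). miR-145 had a log2 fold of -2.37 ± 0.34 (adjusted p = 0.000202). The fibroblast miRNAs miR-199a and miR-199b had smaller folds, of -0.94 ± 0.31 (adjusted p = 0.0447) and -1.11 ± 0.31 (adjusted p = 0.0205), and miR-214 had -0.56 ± 0.36 (adjusted p = 0.344). miR-199a lost the call in 9 of the 10 fits that leave out a sample, all but the one without tumor 5, with folds between -1.05 and -0.82. The summed level of the 5 was 43.9 to 71.6 array medians in the tumors, against 188 to 298 in the glands, and 4 of 5 were lower. Calls among them numbered 4 under quantiles, 2 with no scaling and 3 under the other scalings, and 2 without tumors 1 and 2.

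All 3 miRNAs of red cells were lower. miR-451, which matures in red cells without Dicer, stood at 97.6, 58.2, 139, 72.3 and 29.7 array medians in the tumors, against 582, 375, 415, 421 and 268 in the glands, with no overlap (log2 fold -2.51 ± 0.42, adjusted p = 0.000815). miR-144, from the same cluster on chromosome 11, had a fold of -2.85 ± 0.50 (adjusted p = 0.00107) and was above background in 1 tumor and 5 glands. miR-486 had a fold of -2.05 ± 0.32 (adjusted p = 0.000481). The sum of the 3 lay between 31.1 and 142 array medians in the tumors, against 277 to 595 in the glands.

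The skeletal muscle miRNAs had the largest folds of the comparison and the largest spread. miR-133b stood at 0.18, 0.25, 0.25, 13.9 and 0.10 array medians in the tumors, against 104, 1.73, 43.9, 13.4 and 45.2 in the glands (log2 fold -5.64 ± 1.25, adjusted p = 0.00645). miR-1 stood at 0.12, 0.25, 0.12, 17.4 and 0.04 array medians in the tumors, against 50.9, 1.36, 25.5, 11.4 and 31.2 in the glands (log2 fold -5.59 ± 1.36, adjusted p = 0.00898). Tumor 4 was in the range of the glands for both, and gland 2 was below the other glands. In the tumors miR-133b was above background on 2 arrays and miR-1 on 1.

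miR-206, the neighbour of miR-133b on chromosome 1, had a log2 fold of -2.98 ± 0.91 (adjusted p = 0.0331), so 3 of 3 listed miRNAs were lower. Without tumor 4 the folds were -6.89 for miR-133b (adjusted p = 0.000166), -7.05 for miR-1 (adjusted p = 0.000107) and -3.67 for miR-206 (adjusted p = 0.00568). Without gland 2 they were -6.55, -6.44 and -3.49, and all 3 passed. miR-206 lost the call in 6 of the fits that leave out a sample, those without tumor 1, 2 or 3 or gland 1, 3 or 5, with folds between -3.04 and -2.40. Without tumors 1 and 2 none of the 3 passed, with folds of -4.94, -5.06 and -2.33. The summed level of the 3 was 0.49 to 37.2 array medians in the tumors, against 4.77 to 189 in the glands. A further entry outside the list, miR-133a*, had a log2 fold of -2.82 (limma adjusted p = 0.103) and was not called. It was above background in 1 tumor and 4 glands.

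**Figure D3:**
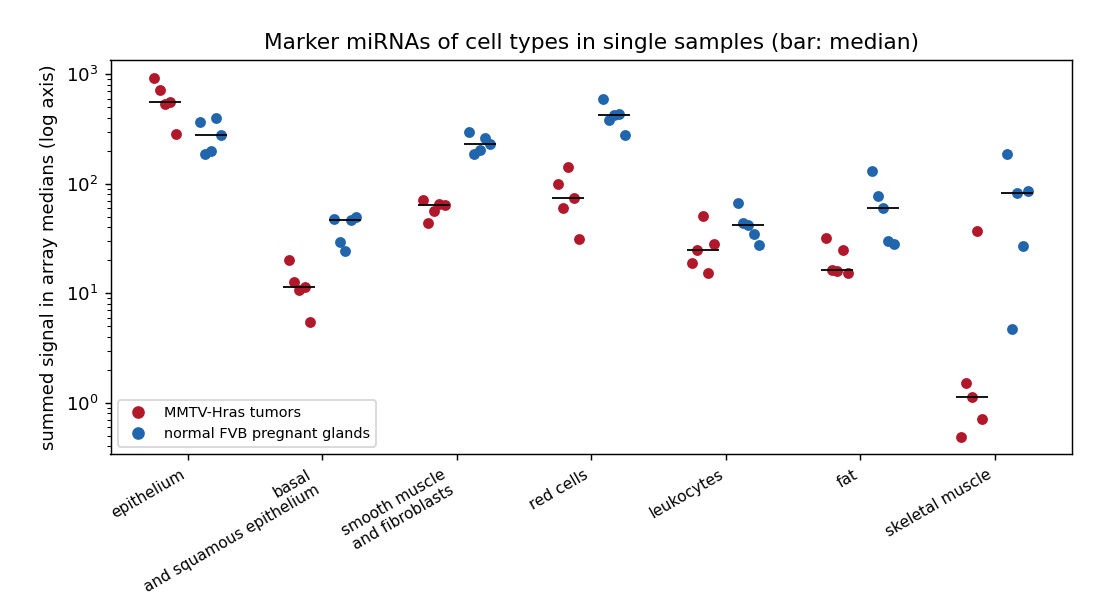
Summed level of the marker miRNAs of 7 cell types in single samples, in array medians on a log axis, with MMTV-Hras tumors in red on the left, normal FVB pregnant glands in blue on the right and the median as a bar. Smooth muscle, red cell and basal sums of tumors lie below those of all glands, and the skeletal muscle sum of tumor 4 is 37.2 array medians, among the glands.

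The leukocyte miRNAs went both ways. miR-150, which is abundant in mature lymphocytes, stood at 0.94, 1.08, 1.53, 2.14 and 1.70 array medians in the tumors, against 27.7, 25.3, 17.8, 7.55 and 7.16 in the glands (log2 fold -3.37 ± 0.45, adjusted p = 0.00011). The groups lay apart although the glands differed. miR-142-5p, which is made in most blood cell lines, was higher with a fold of 1.22 ± 0.40 (adjusted p = 0.0452), with tumor 3 the highest at 9.33 array medians. It lost the call in 6 of the fits that leave out a sample, those without tumor 3 or 4 or gland 2, 3, 4 or 5, with folds between 0.89 and 1.29. miR-223 of myeloid cells and miR-155 of activated lymphocytes had folds of -0.35 and 0.33 and did not pass. Of 4 leukocyte miRNAs, 1 was higher and 1 lower, and their sum lay between 15.4 and 50.9 array medians in the tumors, against 27.6 to 66.9 in the glands.

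Of 3 fat-linked miRNAs, miR-193 was lower (log2 fold -1.83 ± 0.48, adjusted p = 0.0132) and miR-365 was not called (-1.09 ± 0.43, adjusted p = 0.0871). Their sum with miR-378 lay between 15.2 and 32.0 array medians in the tumors, against 28.4 to 130 in the glands. The single endothelial entry on the array, miR-126-5p, was not above background on any of the 10 arrays.

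Among other lower miRNAs, miR-139 stood at 0.20, 0.21, 0.22, 0.16 and 0.60 array medians in the tumors, against 1.76, 1.31, 0.94, 1.00 and 0.98 in the glands (log2 fold -2.26 ± 0.40, adjusted p = 0.00107). The groups lay apart, and it was above background in 2 tumors and 5 glands. miR-146b, which is induced by inflammatory signalling, had a fold of -1.73 ± 0.47 (adjusted p = 0.017). The other member of the pair, miR-146, went the other way with a fold of 0.82 and was not called. With no scaling neither passed. miR-805 was even in the tumors, at 19.1 to 23.1 array medians, against 40.3 to 210 in the glands (log2 fold -2.21 ± 0.48, adjusted p = 0.00565). miR-695 was above background in none of the tumors and in 4 of the glands, and was at least 4.17-fold lower in the tumors.

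Lists tied to the oncogene or to growth were mostly not called. None of the 9 let-7 members passed, and their folds lay between -0.09 and 0.38 with a median of 0.04, which was -0.23 without tumors 1 and 2. Of 11 miRNAs linked to Ras, 0 were higher and 2 lower, and those were miR-143 and miR-145. miR-21, which Ras signalling induces through AP-1, stood at 137, 106, 164, 55.0 and 82.5 array medians in the tumors, against 56.2, 33.1, 43.6, 57.9 and 57.0 in the glands (log2 fold 1.07 ± 0.37, adjusted p = 0.0551). It passed under each of the other 5 scalings and without tumor 4 or without tumor 5. The pair miR-221 and miR-222 had folds between 0.06 and 0.15 and neither passed.

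The 5 miR-30 members had positive folds with a median of 0.91 and none passed, while 3 to 5 passed under the other scalings. Of 12 members of the miR-17-92 cluster and its paralogs, which Myc induces, 0 passed, and 2 to 5 were higher under the other scalings. Myc represses 13 of the miRNAs, of which 2 passed as lower, miR-150 and miR-22. The call of miR-22 was lost without tumor 4 or gland 2 or 3, at folds between -1.17 and -1.10. Of the 13, 1 was lower with no scaling, and 1 was higher under each scaling other than the array median. p53 induces 9, of which 3 passed as lower (miR-107, miR-143 and miR-145). Of 43 miRNAs listed for the imprinted Dlk1-Dio3 cluster 1 was higher and 0 were lower, and without tumor 5 it was 1 and 6. The list leaves out miR-376b* of that cluster, which was called lower. miR-376b* lost the call in most fits that leave out a sample, with folds there between -2.23 and -1.83. The share of all miRNAs called was 6.89% higher and 12.9% lower.

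Of 10 miRNAs that the study names for MMTV-Hras, 4 were higher and 0 lower, and of 19 that it names for normal gland, 0 were higher and 16 lower. These counts followed the scaling. Under each of the other scalings, 8 of the 10 were higher. Of the 19, 8 were lower with no scaling and 14 to 16 under the remaining scalings. Without tumors 1 and 2, 2 of the 10 were higher and 12 of the 19 lower. The study picked the MMTV-Hras set against all other groups and not against normal gland alone. The study chose both sets on these samples, so that the counts are not independent evidence of direction.

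**Figure D4:**
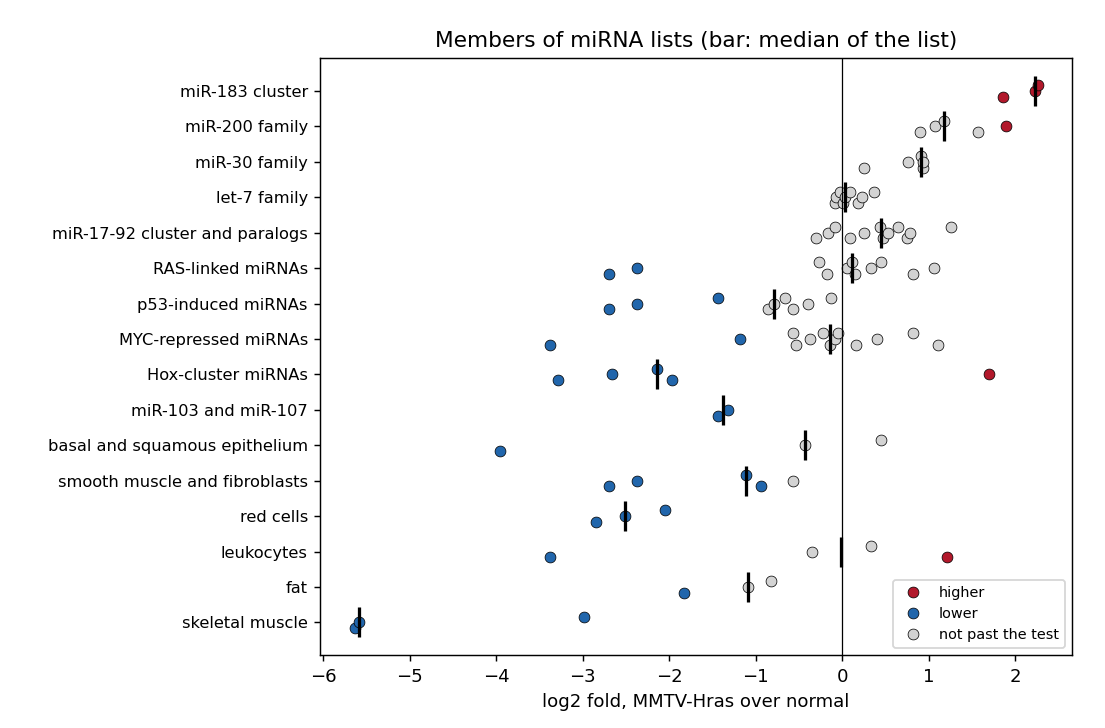
Log2 fold of MMTV-Hras over normal for the members of 16 lists, 1 point per miRNA, with the median of each list as a bar. Red points are higher, blue points lower and grey points did not pass. All 3 members of the miR-183 cluster are red, all 3 red cell miRNAs are blue, and the 9 let-7 members lie between -0.09 and 0.38.

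The MMTV-Hras tumors were then set against the mean of the 4 other FVB MMTV models, in a fit of 29 arrays in which the normal arrays cancel. In it 56 miRNAs were higher (16.8%) and 75 lower (22.5%) in MMTV-Hras tumors, around a median log2 fold of -0.19. The 6 largest folds upward were those of miR-183, miR-182, miR-200a, miR-129-5p, miR-200c and miR-148a. miR-183 lay between 3.28 and 22.7 array medians in the 5 MMTV-Hras tumors, against a lowest of 0.08, a median of 1.04 and a highest of 6.48 in the 19 other tumors (log2 fold 3.23 ± 0.48, adjusted p = 9.51e-06). miR-182 lay between 18.5 and 84.5 array medians in MMTV-Hras tumors, against a lowest of 0.26, a median of 5.07 and a highest of 37.7 (log2 fold 3.16 ± 0.57, adjusted p = 0.00011). The ranges overlapped for both.

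miR-200a lay between 176 and 578 array medians in MMTV-Hras tumors, against a lowest of 0.28, a median of 88.1 and a highest of 306 in the others (log2 fold 2.77 ± 0.77, adjusted p = 0.00623). miR-200c had a log2 fold of 2.41 ± 0.77 (adjusted p = 0.015). The lowest value of both came from 1 MMTV-Wnt tumor, and without the MMTV-Wnt tumors the folds were 2.37 (adjusted p = 5.01e-05) and 2.01 (adjusted p = 0.000328). Without MMTV-Hras tumors 1 and 2 they were 2.42 (adjusted p = 0.056) and 1.88 (adjusted p = 0.127). Of the miR-200 family, 4 of 5 were higher than in the other models. The remaining member, miR-141, was not called and had a negative log2 fold of -0.93 ± 0.78 (adjusted p = 0.36). Of the miR-183 cluster, 3 of 3 were higher. miR-148a, one of the most abundant miRNAs of milk, and miR-129-5p, best known from neurons, were also higher, with folds of 2.35 ± 0.58 (adjusted p = 0.00235) and 2.46 ± 0.55 (adjusted p = 0.00102).

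Downward, miR-1, above background in 1 MMTV-Hras tumor, had a measured fold of -4.36 ± 1.04 (adjusted p = 0.00182). Of the 3 listed skeletal muscle miRNAs, 2 were lower than in the other models. miR-691 was above background in none of the 5 MMTV-Hras tumors and in 18 of the 19 others, and was at least 7.25-fold lower in MMTV-Hras tumors (adjusted p = 3.49e-08). miR-467* was above background in none of them and in 13 of the 19 others, at least 3.25-fold lower (adjusted p = 0.000494). miR-184, also above background in 1 of them, had a measured fold of -3.20 ± 0.60 (adjusted p = 0.000172), miR-546 of -2.87 ± 0.37 (adjusted p = 1.84e-06) and miR-491 of -2.79 ± 0.62 (adjusted p = 0.00101).

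Folds over normal gland of the 5 models, each from its own fit, share the 5 normal arrays. For miR-183 they were 2.23 in MMTV-Hras, -2.05 in MMTV-C-Myc, -1.01 in MMTV-H2N, 0.55 in MMTV-PymT and -1.50 in MMTV-Wnt. For miR-10b they were -3.29, -3.20, -3.15, -3.46 and -2.73 in the same order of models, so MMTV-Hras stood among the others (-0.15 ± 0.40 against their mean, adjusted p = 0.772). For miR-205 they were -3.96, -0.94, -2.80, -1.04 and -0.99, and the level in MMTV-Hras tumors was below the mean of the others (log2 fold -2.52 ± 0.73, adjusted p = 0.00768). The ranges overlapped, at 1.01 to 2.56 array medians in MMTV-Hras tumors and 0.20 to 82.6 in the others. MMTV-Wnt tumors had an SD of 4.11 on the log2 scale. For miR-346 the folds over normal gland were 4.06, 1.30, 2.24, 1.09 and 3.95, and for miR-211 3.76, 1.00, 3.68, 0.40 and 3.15. MMTV-Hras was above the mean of the others in both (log2 fold 1.91 ± 0.53, adjusted p = 0.0061, and 1.70 ± 0.49, adjusted p = 0.00768), although MMTV-Wnt lay close to it for both miRNAs and MMTV-H2N for miR-211.

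**Figure D5:**
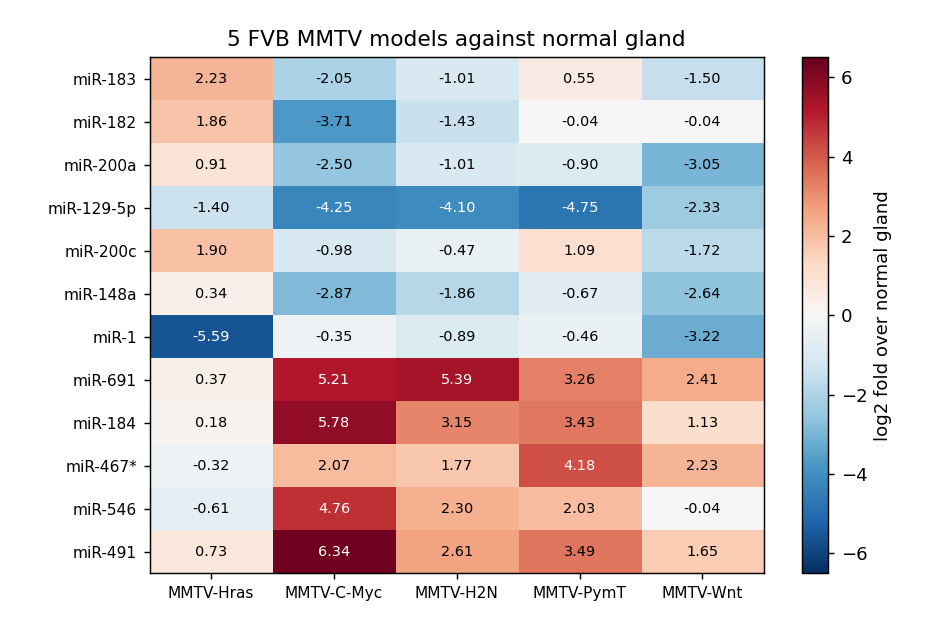
Log2 fold over normal gland of 12 miRNAs (rows) in 5 FVB MMTV models (columns), with the value in each cell, red above and blue below 0. miR-183 and miR-182 have values of 2.23 and 1.86 in MMTV-Hras and at most 0.55 in the other models, while miR-691, miR-184 and miR-467* were not above background on any of the 5 normal arrays, so that their cells give measured differences and not the size of a change.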

How the data were processed

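The authors labelled total RNA with Hy3 and hybridised it to a custom miRNA array, 1 per sample, and retained the scanner software's processed signal of the mouse probes. The deposited raw table holds signal intensity in array units for 1336 spots, 4 for each of 334 miRNAs, and was used for all values. The deposited series matrix holds log2 values, which equalled the median-scaled log2 intensity plus a constant (spread of the difference at most 1.81e-09) and served as an alternative. Further columns of per-sample values that could not be tied to a sample numbered 1 and were not used.

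Spot intensities were taken to log2, centred on the median of all spots of the array and averaged over the 4 spots (median SD of the 4 spots 0.167). Groups follow the labels. Two-sided tests were made with limma 3.58.1 (R 4.3.3), and p was adjusted over 334 miRNAs by Benjamini-Hochberg with a threshold of 0.05, after a check on simulated data. Tables were made in Python 3.11.15. Errors beside folds are standard errors, with 5 samples per group. A fold written as "at least" sets the mean of the brighter group against the mean, over arrays of the dimmer group, of the higher of 3 floors and the measured level. The number of arrays limits precision. Alternatives were other scalings, the deposited log2 values, a filter on or a raise to 3 floors, the median of spots, array weights, more arrays in the fit, the replicate number or the 3 digits as a block, and samples left out.

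The miRNAs named are the 12 with the largest called fold in each direction, the 10 of those above background on all arrays, up to 4 of each list, those the study names, and 6 in each direction against the other MMTV models, of which the text gives a selection. The chromosome X cluster, miR-126-5p, miR-450b, miR-376b*, miR-133a* and the members compared with the other models by name beyond these were chosen after their values were seen. Members and lists were chosen with earlier results of these data known. Of 224 miRNAs in 35 lists, 192 were on the array. Clusters are neighbours in RefSeq genes of GRCm38.p6. The build of the array design is not given in the sources used here.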

Additional observations from a re-analysis of the deposited data

Results flagged for a closer look

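In a group of 5, a sample is marked where its gap to the nearest other sample, divided by the range of the group, exceeds 0.710. Chance marks about 1 in 20 groups, and 3 were marked among 122 miRNA and group pairs looked at. miR-133b in MMTV-Hras was high in tumor 4 (gap over range 0.82). miR-196b in MMTV-Hras was low in tumor 1 (0.831). miR-139 in MMTV-Hras was high in tumor 5 (0.756).

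The test of MMTV-Hras against the other 4 FVB MMTV models marked 12 miRNAs. The log2 folds were 3.23 for miR-183, 3.16 for miR-182, 2.77 for miR-200a, 2.46 for miR-129-5p, 2.41 for miR-200c and 2.35 for miR-148a. They were -4.36 for miR-1, -3.69 for miR-691, -3.20 for miR-184, -2.89 for miR-467*, -2.87 for miR-546 and -2.79 for miR-491. Of these, miR-691 and miR-467* were above background in none of the MMTV-Hras tumors, and miR-1 and miR-184 in 1, so the measured folds have no order by size, and those of miR-691 and miR-467* stand for differences of at least 7.25-fold and 3.25-fold.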

How the results depend on the processing

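All 23 higher and 43 lower miRNAs kept their direction under 24 alternatives, and 10 and 13 of them kept their call under each. Not all of these could change a direction. The deposited log2 values, more arrays in the fit and the replicate block leave every fold as it was. The 3 digits as a block gave the same folds as leaving out tumors 1 and 2. Higher miRNAs numbered 44 with the 75th percentile, 59 with no scaling (19 lower), 52 with the mean of the brightest miRNAs, 42 with quantiles, 40 with the floor subtracted and 55 with array weights. An equal-variance t-test of MMTV-Hras against normal gland gave 8 higher and 16 lower at p below 0.001, and 17 and 29 after Benjamini-Hochberg. The study's own t-tests set a model against the other models, so this contrast is not the study's. With a sample left out there were 16 to 39 higher (39 without tumor 5) and 32 to 47 lower. The causes were not tested. Without tumors 1 and 2 there were 19 higher and 35 lower. With the replicate number as a block there were 30 higher and 46 lower, and the call changed for miR-206 (lost), miR-429 and miR-30b (gained) of 61 named. Deviations of equal numbers correlated at 0.36, 0.16, 0.02, -0.20 and 0.22. As only 3 of 5 were over 0.1 and the labels name no shared source, the numbers were not taken to pair the samples, although 6 of 10 arrays correlated best with their own number, a hint from the data and not from the design. Against the other models, the split also followed the scaling. There were 46 higher and 99 lower with the 75th percentile, and 36 and 102 with the brightest miRNAs. With the floor subtracted there were 49 and 103, with quantiles 66 and 66, and with no scaling 54 and 46. Without tumors 1 and 2, a fit chosen after seeing the data, there were 31 higher and 81 lower. With a sample left out there were 41 to 55 higher and 51 to 81 lower. Of the 61 named miRNAs, those whose fold changed sign, none of them called, were miR-203 at 0.10 and miR-223 at 0.17 with no scaling, miR-223 at 0.21 with array weights, miR-155 at -0.22 without tumor 1 (-0.22 to 0.74 with a sample left out), and miR-31 at -0.34 and miR-155 at -0.23 both without tumors 1 and 2 and with 3 digits as a block. miRNAs below 3 floors have only bounds.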
